A study of Mus musculus with 6 samples.

Results

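Long intergenic noncoding RNA (lincRNA) genes with measurable expression were described in mouse mammary tumor cells with and without depletion of CdGAP. Members were the genes given the type lincRNA in the deposited table whose mean over all 6 libraries was at least 50 reads, each library's reads having been divided by its size factor. Ptgs2os2, H19 and Meg3 were left out by this rule, and 100 genes remained of 2726 lincRNA genes listed and of 41214 genes in the table. Reads were seen for 1072 of the lincRNA genes and for 22322 genes in all. The members were thus chosen by their level over all libraries, so their abundance is a description, and a gene expressed in 1 group alone could enter through that group. The 3 members just inside the threshold were 4930556M19Rik, Cep83os and 2310001H17Rik, with means of 50.2, 51.5 and 54.2 reads. Just outside it stood Gm26853, Gm15398 and Gm16001, with means of 48.4, 47.9 and 47.8 reads. Gm15398 had 0.253, 0.197 and 0.116 FPKM in shCdGAP libraries, against 5.84, 6.15 and 5.13 FPKM in shCON libraries.

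The cells were mammary tumor explants kept in culture. They go back to NMuMG, a line of mouse mammary epithelium, and carried Neu-NT, an active variant of the ErbB2 receptor. The shCdGAP cells (3 libraries) were depleted of CdGAP, which Arhgap31 encodes and which switches off the small GTPases Cdc42 and Rac1, by a short hairpin RNA. The shCON cells (3 libraries) were the control, and all cells of both groups carried Neu-NT and were grown with insulin and G418. The cell type label names shCTL for all 6 samples, so groups follow the genotype label. The labels give neither the hairpin sequences, nor the number of clones, nor whether replicates were grown as separate cultures. P-values therefore cover the spread among these libraries alone, and that spread may be technical.

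LincRNAs are transcribed by RNA polymerase II, capped and usually spliced, and lie between or beside coding genes without an established protein product. Some act in the nucleus as scaffolds of nuclear bodies or on chromatin, some give rise to microRNAs or small nucleolar RNAs, and for many the act of transcription next to a coding gene has been studied more than the transcript. Most have no assigned function, and 84 of the 100 members carry provisional symbols.

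The libraries held 19176540 to 26824249 gene-assigned reads. Arhgap31 had 0.149, 0.826 and 0.748 FPKM (fragments scaled to gene length and library depth) in shCdGAP libraries, against 1.19, 1.30 and 1.35 FPKM in shCON libraries. The groups did not overlap, yet limma's adjusted p was 0.0836, and 0.0157 without shCdGAP replicate 1. That library stood apart: it correlated at 0.948 and 0.938 with the other shCdGAP libraries, which correlated at 0.996 with each other. Of 8 mammary epithelial markers 4 were over 1 FPKM (Krt8, Krt18, Krt19 and Cdh1), and the list, most of it Krt8 and Krt18, summed to 4001 to 6555 FPKM in shCdGAP and 3617 to 5065 FPKM in shCON libraries. The list moved both ways: Cdh1 was higher (168 ± 16.1 FPKM in shCdGAP, against 50.7 ± 11.1 FPKM in shCON, SD, n = 3 each; adjusted p 0.00220 by limma), as was Krt7 (0.0353). Lower were Krt5 (0.0131 ± 0.0114 FPKM in shCdGAP, against 0.607 ± 0.124 FPKM in shCON, SD, n = 3 each; adjusted p 0.00188 by limma) and Epcam (0.00232), which was listed at 0 in all shCdGAP libraries, against 0.812, 0.517 and 0.568 FPKM in shCON libraries. The part of these markers in the results on lincRNA genes was not tested. No endothelial, adipocyte or fibroblast marker reached 1 FPKM. Of 5 leukocyte markers Cd68 alone did, the list summing to 2.69 to 8.54 FPKM in shCdGAP and 12.7 to 17.6 FPKM in shCON libraries, with Adgre1 listed at 0 everywhere.

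Members were mostly low. Their mean level had a median of 2.87 FPKM (0.337 to 291), against 10.4 FPKM for coding genes over the same threshold. Their annotated exons covered a median of 2682 bases, against 4630 bases for those coding genes, and they had a median of 3 exons at most per transcript, against 10. In the later GENCODE M21 annotation of the same build 96 members had a position, 78 were still lincRNA genes, 18 had another type, and 10 had a single exon. The spread within groups was like that of other genes, with a median SD on the log2(FPKM + 1) scale of 0.190 for members and 0.182 for all genes over the threshold. Gm37494, Gm4790 and 6230415J03Rik are names of a single RefSeq locus, Gm33989, annotated there as coding, so these 3 members share a source.

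Depletion went with change in both directions. In limma on log2(FPKM + 1), adjusted by Benjamini-Hochberg over all 13483 tested genes with a threshold of 0.05, 24 members passed, 13 higher and 11 lower in shCdGAP cells. All 100 members had passed the filter on low genes. The background was 21.0% of all tested genes, 9.92% higher and 11.1% lower, and 20.2% of tested genes over the same threshold of 50, 10.4% higher and 9.80% lower. The members' share is near this background and so is no result about the members. Groups did not overlap for 45 members, against 44.1% of all tested genes and 43.8% of those over the threshold of 50. The median log2 fold change was 0.10 for members, with 58 positive and 42 negative, and -0.010 for all tested genes. Entering the replicate number as a block left 17 members past the threshold, 7 higher and 10 lower, against 18.2% of all tested genes in that fit. Without shCON replicate 2, and likewise without shCON replicate 3, 9 members passed, against 9.17% and 9.88% of all tested genes in those fits. Without shCdGAP replicate 2 there were 11, against 10.9%. Without shCdGAP replicate 1 there were 43, 25 higher and 18 lower, against 39.9% of all tested genes and 40.8% of those over the threshold of 50, and the 24 were among them in the same direction. The authors' deposited table, from DESeq2, called 30 members, 18 higher and 12 lower, against 23.8% of genes with an adjusted p there, 11.3% higher and 12.5% lower, and these held all 24 in the same direction.

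**Figure D1:**
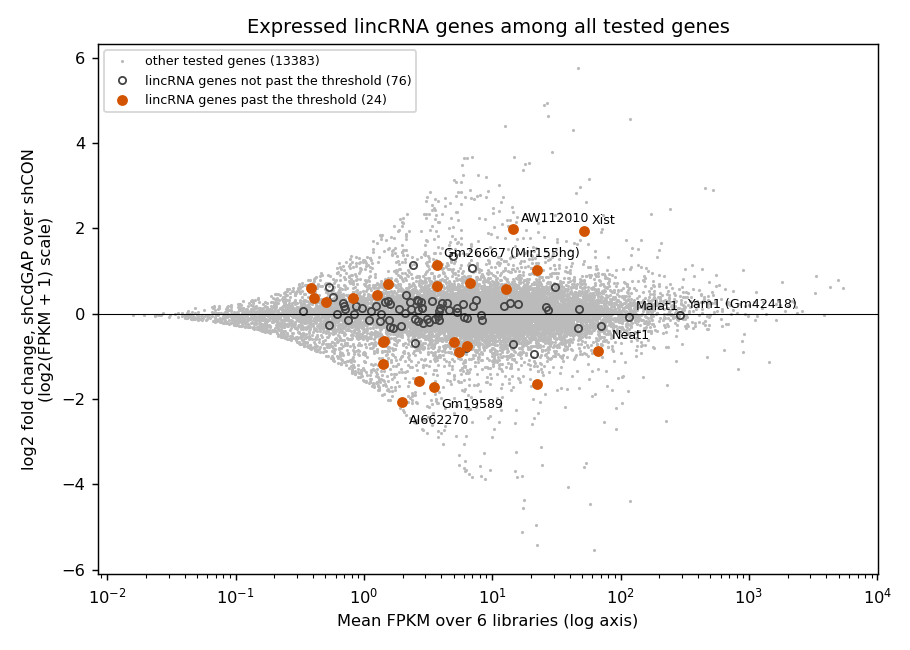
Each point is a gene, placed by its mean level over 6 libraries (FPKM, log axis) and its log2 fold change of shCdGAP over shCON on the log2(FPKM + 1) scale. The 24 lincRNA genes past the threshold (filled) lie on both sides of 0, at mean levels of 0.388 to 66.6 FPKM, and the 3 most abundant lincRNA genes that did not pass, Yam1, Malat1 and Neat1, lie between -0.04 and -0.29.

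Reads of the members were concentrated on a few genes, among them well-known nuclear RNAs. Neat1, Xist, Malat1 and Yam1 together held 70.8% to 82.2% of the members' reads, and all members held 0.703%, 0.528% and 0.366% of reads in shCdGAP replicates 1, 2 and 3, against 0.474%, 0.463% and 0.401% in the shCON replicates. Xist, the RNA that coats the inactive X chromosome in female cells, lies on the minus strand at chrX:103460366-103483254 (mm10). It had 95.4, 90.5 and 62.3 FPKM in shCdGAP libraries, against 19.6, 23.5 and 19.2 FPKM in shCON libraries. Every shCdGAP library was well above every shCON library. The shCdGAP mean was 3.99 times the shCON mean (82.7 ± 17.8 FPKM in shCdGAP cells, against 20.8 ± 2.37 FPKM in shCON cells, SD, n = 3 each), with a log2 fold change of 1.93 ± 0.19 (SE) and an adjusted p of 0.00149 by limma. It kept its call in all 15 alternative settings tried. The reads came from a gene with an antisense partner, Tsix, and strand handling is not given in the sources used here. Tsix itself was listed with 1 read in shCdGAP replicate 1 and 1 read in shCON replicate 2.

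The start region of Xist is shown because the member with the most reads that changed begins there. It comes from RefSeq (GRCm38.p6, chrX:103483184-103483483, minus strand, 250 bases before to 50 after the start). The E-box CACCTG bound by Zeb and Snail factors, the AP-1 site TGANTCA and an NF-kappaB site written as GGGA and CC with any 4 bases between, searched on both strands, had no match in this window.
Xist: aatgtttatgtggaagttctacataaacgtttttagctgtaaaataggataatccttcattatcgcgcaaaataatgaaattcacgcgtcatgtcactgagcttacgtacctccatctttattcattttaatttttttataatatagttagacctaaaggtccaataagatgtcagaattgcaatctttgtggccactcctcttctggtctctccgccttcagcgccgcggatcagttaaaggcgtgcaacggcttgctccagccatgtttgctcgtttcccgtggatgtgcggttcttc

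Xist was not accompanied by a shift of X-linked genes as a whole. Of 329 tested X-linked coding genes over the threshold of 50, 37 were higher and 37 lower in shCdGAP cells, with a median log2 fold change of 0.013. Of 10365 autosomal coding genes 1079 were higher and 1027 lower, with a median of -0.0071. More cells with Xist RNA and more of it per cell cannot be told apart in these bulk libraries. Ftx and Jpx, 2 further noncoding genes of the X inactivation centre that are known as activators of Xist in mouse, were far lower in level. Ftx had 0.714, 0.827 and 0.874 FPKM in shCdGAP libraries, against 0.579, 0.541 and 0.630 FPKM in shCON libraries, with an adjusted p of 0.109 by limma. Its groups did not overlap, and without shCdGAP replicate 1 its adjusted p was 0.0405. Jpx had 0.868, 0.904 and 0.564 FPKM in shCdGAP libraries, against 0.508, 0.737 and 0.687 FPKM in shCON libraries, and its groups overlapped.

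Neat1, the scaffold of paraspeckles, varied most among the abundant members. It had 114, 61.6 and 29.3 FPKM in shCdGAP libraries, against 83.4, 71.5 and 64.5 FPKM in shCON libraries. The shCdGAP values lay on both sides of the shCON range, and the log2 fold change came to -0.29 ± 0.46 (SE; adjusted p 0.700 by limma). Malat1, a nuclear speckle RNA, had 157, 113 and 74.5 FPKM in shCdGAP libraries, against 114, 130 and 104 FPKM in shCON libraries. Its groups overlapped, with shCdGAP replicate 1 highest and replicate 3 lowest as for Neat1. Yam1, called Gm42418 in GENCODE M21, had the highest level, 368, 243 and 248 FPKM in shCdGAP libraries, against 365, 310 and 210 FPKM in shCON libraries. It lies 616 bases from another member, Gm26917, in a stretch of chromosome 17 known for ribosomal RNA-like sequence, so the reads of both are uncertain. Lincenc1, a transcript known from mouse embryonic stem cells, had 60.0, 44.6 and 45.2 FPKM in shCdGAP libraries, against 45.9, 46.4 and 44.3 FPKM in shCON libraries, and did not pass. Of 12 paraspeckle protein genes 1 was higher, Nono (log2 fold change 0.37, adjusted p 0.0286 by limma), and of 13 genes of nuclear speckles and Malat1 processing 1 was higher, Srrm2 (0.42, adjusted p 0.0357). None of either list was lower. Among 10 tested RNAs of the nuclear body and chromatin list, 1 was higher (Xist) and 1 lower (Fendrr). With 9.92% of all tested genes higher and 11.1% lower, these list counts are a description.

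**Figure D2:**
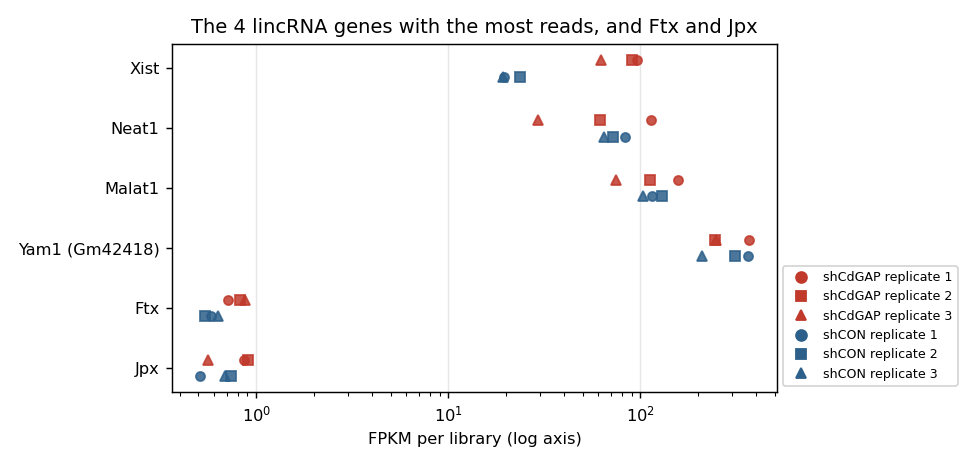
FPKM per library (log axis) of the 4 lincRNA genes with the most reads, and of Ftx and Jpx. Each symbol is a library, shCdGAP in red above shCON in blue. Xist separates the groups, with shCdGAP libraries at 62.3 to 95.4 FPKM and shCON libraries at 19.2 to 23.5 FPKM, while those of Neat1, Malat1 and Yam1 overlap.

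Among members that contain small RNAs 1 passed the threshold, against 21.0% of all tested genes in either direction, so this count is a description. On their own strand 6 members contain an annotated microRNA and 6 contain a small nucleolar RNA. Gm26667, named Mir155hg in GENCODE M21, is the host of miR-155, a microRNA known for its induction in activated immune cells and its high level in several tumors. It lies at chr16:84703167-84715245 on the plus strand. It had 6.81, 5.31 and 4.38 FPKM in shCdGAP libraries, against 2.28, 1.52 and 1.93 FPKM in shCON libraries. The groups did not overlap, and the log2 fold change came to 1.15 ± 0.18 (SE; adjusted p 0.00738 by limma), past the threshold under all 15 alternatives. Mir17hg, the host of the miR-17-92 cluster, which is a known target of Myc, had 1.71, 3.07 and 3.15 FPKM in shCdGAP libraries, against 2.97, 2.80 and 3.71 FPKM in shCON libraries. Only shCdGAP replicate 1 was below the shCON range, and the gene did not pass. 6720427I07Rik, which contains let-7a-1, let-7d and let-7f-1, had 2.91, 2.44 and 2.01 FPKM in shCdGAP libraries, against 2.18, 2.13 and 2.24 FPKM in shCON libraries, and its groups overlapped. It was named after its values were seen, for the microRNAs it contains. Mature microRNAs were not measured, so the values describe the host transcripts alone.

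The mature sequences are shown to group the hosts' products by seed. They come from RefSeq (GRCm38.p6), with the seed, bases 2 to 8, in capitals. The miR-155 seed is shared with none of the others shown, miR-17 and miR-20a share a seed, miR-19a and miR-19b share another, and the 3 let-7 microRNAs share 1.
miR-155-5p: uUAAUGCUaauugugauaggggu
miR-17-5p: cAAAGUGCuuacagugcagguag
miR-20a-5p: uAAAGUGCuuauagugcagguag
miR-18a-5p: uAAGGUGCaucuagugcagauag
miR-19a-3p: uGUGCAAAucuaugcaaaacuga
miR-19b-3p: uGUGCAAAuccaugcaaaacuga
miR-92a-3p: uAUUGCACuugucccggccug
let-7a-5p: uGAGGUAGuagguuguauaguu
let-7d-5p: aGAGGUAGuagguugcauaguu
let-7f-5p: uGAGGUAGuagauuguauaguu

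The miRNA host list of textbook names had 5 tested genes, of which 1 was higher, Gm26667, and none lower. Among 15 tested snoRNA hosts, genes that carry small nucleolar RNAs in their introns, 3 were higher (Snhg14, Snhg4 and Gas5) and none lower, against 9.92% higher and 11.1% lower among all tested genes. The list's median log2 fold change was 0.25, against -0.010 for all tested genes, and with so few genes these counts are a description. None of these 3 is a member. The largest change in the list was a fall, that of Gm11974 (Snhg15; -0.86, adjusted p 0.0572 by limma), also not a member. Without shCdGAP replicate 1 it passed as lower (0.0207). In that fit Snhg12, Snhg3, Snhg5, Dancr and Snhg9 also passed, as higher, against 39.9% of all tested genes passing in either direction. With all libraries the 4 members in this list did not pass: Snhg6 had 29.7, 26.2 and 26.9 FPKM in shCdGAP libraries, against 33.2, 22.6 and 23.5 FPKM in shCON libraries. Snhg12 had 13.6, 19.1 and 18.96 FPKM in shCdGAP libraries, against 12.4, 15.6 and 15.4 FPKM in shCON libraries. For both, the groups overlapped. 2810008D09Rik (Snhg20) had 7.69, 8.69 and 7.27 FPKM in shCdGAP libraries, against 9.68, 8.64 and 8.01 FPKM in shCON libraries. 2410004N09Rik (Epb41l4aos) had 47.4, 31.0 and 33.7 FPKM in shCdGAP libraries, against 29.5, 19.5 and 22.8 FPKM in shCON libraries. Its groups did not overlap, its adjusted p by limma was 0.0965, and with the replicate number as a block it was 0.0222.

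Pvt1, a lincRNA next to Myc, had 6.83, 5.28 and 5.37 FPKM in shCdGAP libraries, against 6.47, 5.87 and 6.10 FPKM in shCON libraries. Myc itself averaged 64.6 ± 9.12 FPKM in shCdGAP cells and 78.7 ± 23.9 FPKM in shCON cells (SD, n = 3 each; adjusted p 0.488 by limma). The groups overlapped for Pvt1 and for Myc. Of the 6 tested genes in the p53 and Myc related list 1 was higher, Gas5, and none lower. The immune and inflammation list had 4 tested genes with 1 higher, Gm26667, and the cytoplasmic and translation related list had 3 with 1 higher, again Gas5. Among all tested genes 9.92% were higher and 11.1% lower. The lists share genes, Gas5 and Gm26667 among them, so these counts are a description.

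On the log2(FPKM + 1) scale the top rise with all libraries was that of AW112010, known from mouse immune cells as an RNA induced by inflammatory signals. It had 31.5, 21.8 and 16.7 FPKM in shCdGAP libraries, against 1.68, 8.12 and 7.82 FPKM in shCON libraries. The groups did not overlap, and shCON replicate 1 was far below the other shCON libraries. The log2 fold change came to 1.98 ± 0.52 (SE; adjusted p 0.0433 by limma), and 1.40 without shCON replicate 1. In that fit Xist, at 1.89, stood above it. With all libraries the ratio of means of AW112010 was 3.97, below that of Xist. It was no longer past the threshold in 8 of 15 alternatives, among them the replicate block (adjusted p 0.0881). Of the leukocyte markers, listed above, only Cd68 passed the filter on low genes. It was lower in shCdGAP cells (log2 fold change -1.41, adjusted p 0.0465 by limma). Ptprc was at 0.0197 FPKM or less in every library. The part of leukocytes in the level of AW112010 was not tested. The RefSeq start region of AW112010 is shown for its 2 matches to the NF-kappaB site, in capitals (GRCm38.p6, chr19:11050517-11050816, minus strand), and this start lies inside the gene as GENCODE M21 draws it. That motif had a match in 20.7% of all 32851 promoters of this length, in 20 of the 62 members with a RefSeq promoter, and in 5 of 11 higher and 3 of 6 lower ones. The E-box CACCTG was in 20.2% of all promoters and in 11 of the 62, with 2 among the higher and 1 among the lower. The AP-1 site TGANTCA was in 7.81% of all promoters and in 8 of the 62, also with 2 among the higher and 1 among the lower. A member was counted if any of its RefSeq promoters had a match, while the percentages are per single promoter, so these are unlike measures. A match is a description of letters and not a binding site.
AW112010: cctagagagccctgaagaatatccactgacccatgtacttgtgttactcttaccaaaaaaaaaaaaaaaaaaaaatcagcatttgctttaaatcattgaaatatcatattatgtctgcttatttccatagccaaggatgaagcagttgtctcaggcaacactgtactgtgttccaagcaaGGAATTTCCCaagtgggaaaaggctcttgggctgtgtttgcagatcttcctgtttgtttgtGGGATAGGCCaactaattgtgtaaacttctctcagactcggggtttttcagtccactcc

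Further rises belonged to members with provisional or antisense names. Gm29562, a single-exon gene at chr9:88827522-88828425, had 41.7, 26.1 and 23.8 FPKM in shCdGAP libraries, against 13.7, 13.4 and 15.3 FPKM in shCON libraries. Its log2 fold change came to 1.02 ± 0.22 (SE; adjusted p 0.0226 by limma), with shCdGAP replicate 1 highest. D130051D11Rik had 0.495, 0.824 and 0.696 FPKM in shCdGAP libraries, against 0.10, 0.118 and 0.0966 FPKM in shCON libraries. Its shCdGAP mean was 6.41 times its shCON mean, the largest ratio among the 13, while the log2(FPKM + 1) scale gave 0.59 (adjusted p 0.00544 by limma). It had 70, 112 and 107 reads in shCdGAP libraries, against 12, 20 and 16 reads in shCON libraries. D130051D11Rik thus entered the members through the shCdGAP libraries. 2010320M18Rik had 9.97, 7.31 and 8.38 FPKM in shCdGAP libraries, against 3.90, 5.08 and 5.37 FPKM in shCON libraries. Fam120aos, which starts 270 bases from the coding gene Fam120a on the other strand, had 4.86, 4.09 and 5.18 FPKM in shCdGAP libraries, against 2.04, 3.02 and 2.86 FPKM in shCON libraries. In both genes every shCdGAP library was above every shCON library. The log2 fold changes were 0.72 for 2010320M18Rik (adjusted p 0.0242 by limma) and 0.66 for Fam120aos (0.0282), and with the replicate block the adjusted p was 0.0638 for 2010320M18Rik and 0.0571 for Fam120aos. Gm12576 had 2.52, 2.25 and 1.66 FPKM in shCdGAP libraries, against 1.06, 0.910 and 0.849 FPKM in shCON libraries, and its groups did not overlap. Its log2 fold change came to 0.69 ± 0.13 (SE; adjusted p 0.0156 by limma).

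The falls were led by AI662270, at chr11:83223576-83226604 and annotated as a processed transcript in GENCODE M21. It had 0.0881, 0.153 and 0.162 FPKM in shCdGAP libraries, against 2.89, 4.49 and 4.04 FPKM in shCON libraries. The shCON mean was 28.3 times the shCdGAP mean, and the log2 fold change came to -2.07 ± 0.15 (SE; adjusted p 0.000454 by limma). It thus entered the members through the shCON libraries. Gm19589, at chr1:88551517-88562167, had 0.700, 1.30 and 1.35 FPKM in shCdGAP libraries, against 4.58, 6.53 and 6.67 FPKM in shCON libraries (log2 fold change -1.71, adjusted p 0.00249 by limma). Gm12514 had 0.341, 1.02 and 1.26 FPKM in shCdGAP libraries, against 3.73, 5.10 and 4.59 FPKM in shCON libraries (-1.57, adjusted p 0.00552 by limma). For all 3 the groups did not overlap, and shCdGAP replicate 1 was the lowest library. Gm12514 had 8, 23 and 32 reads in shCdGAP libraries, against 74, 144 and 126 reads in shCON libraries. Like AI662270 it entered the members through the shCON libraries. Gm12840, a short gene at chr4:117700188-117700923, had 9.70, 10.8 and 9.69 FPKM in shCdGAP libraries, against 47.1, 31.5 and 25.2 FPKM in shCON libraries (-1.64, adjusted p 0.00505 by limma). 4930461G14Rik was the most abundant member that fell, with 38.7, 48.2 and 53.4 FPKM in shCdGAP libraries, against 78.6, 94.2 and 86.3 FPKM in shCON libraries. Its log2 fold change came to -0.88 ± 0.15 (SE; adjusted p 0.0101 by limma), and its highest shCdGAP library lay under its lowest shCON library. Gm13387 had 4.08, 4.47 and 5.02 FPKM in shCdGAP libraries, against 8.46, 8.51 and 7.82 FPKM in shCON libraries (-0.75, adjusted p 0.00544 by limma). Gm26944 had 3.94, 3.63 and 2.79 FPKM in shCdGAP libraries, against 4.97, 9.24 and 8.28 FPKM in shCON libraries. It lies opposite the coding gene Pcf11, so its reads are uncertain without known strand handling, and its adjusted p of 0.0398 became 0.0733 with the replicate block.

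**Figure D3:**
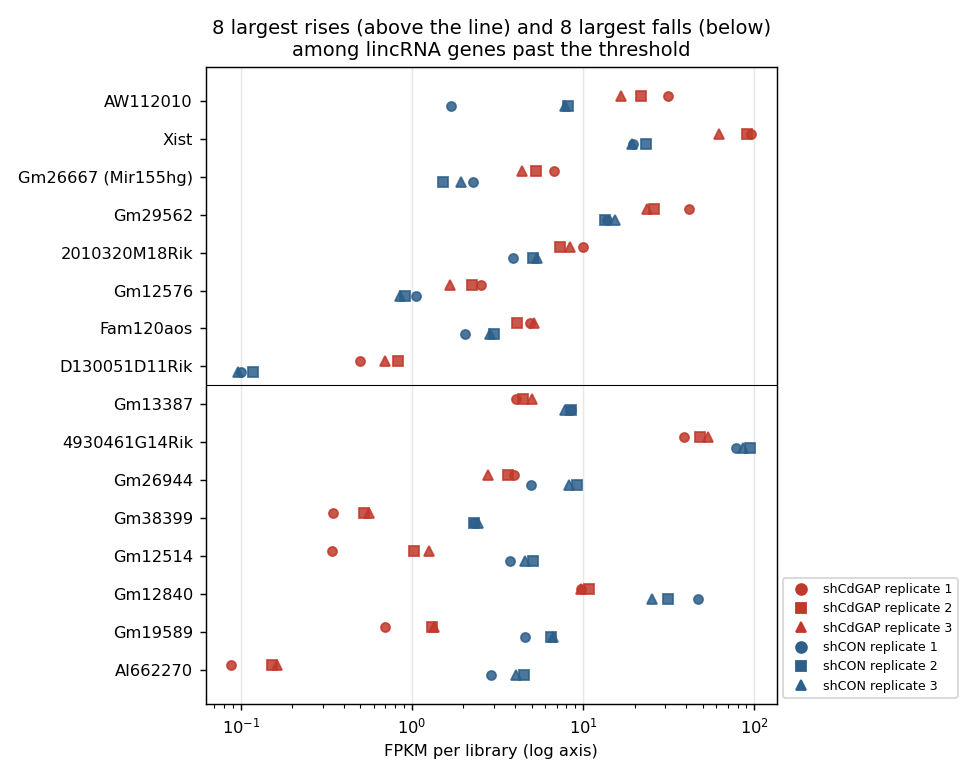
FPKM per library (log axis) of the 8 largest rises and 8 largest falls by log2 fold change among lincRNA genes past the threshold. Each symbol is a library, shCdGAP in red above shCON in blue, and the groups are apart in every row, from 0.0881 FPKM for AI662270 to 95.4 FPKM for Xist.

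Of the other 8 members past the threshold, 2310001H17Rik is one of the 3 just inside the threshold of 50, and the rest fall outside the rule for named genes and were chosen after their values were seen. Higher were Gm16576, C030034I22Rik, 2310001H17Rik, 2500002B13Rik and 1810058I24Rik, with log2 fold changes of 0.28 to 0.57. Lower were Gm26809, Gm17491 and 1810008I18Rik, with log2 fold changes of -0.66, -0.66 and -0.63. Gm17491 overlaps the coding gene Slc20a2 on the same strand, so its reads are uncertain. With the replicate block the adjusted p by limma was 0.0570 for C030034I22Rik, 0.0881 for 1810058I24Rik and 0.0633 for Gm17491. Of the 24 members past the threshold, 9 stayed past it under every alternative: Xist, Gm26667 and D130051D11Rik among the higher, and AI662270, Gm19589, Gm12840, Gm12514, Gm38399 and Gm13387 among the lower. The 6 members called in the authors' deposited table and not by limma were 5031425E22Rik, Gm26905, A330074K22Rik, Gm13431, Gm28151 and Cep83os.

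Many members lie beside coding genes, and 22 of the 95 described with a neighbour start within 1000 bases of a coding gene on the other strand. Of these 22, 4 passed the threshold, all higher, against 21.0% of all tested genes in either direction and 9.92% higher. These counts are a description. With the replicate block none of the 4 passed (adjusted p 0.0555 for 2500002B13Rik, 0.0573 for Gm16576, 0.0638 for 2010320M18Rik and 0.0571 for Fam120aos by limma). Without shCdGAP replicate 1 Cep83os also passed as higher (0.39, adjusted p 0.00617 by limma). In that fit 4930556M19Rik (-0.52, 0.0254) and C030037D09Rik (-0.24, 0.0401) passed as lower. 2500002B13Rik, which starts beside Sap30, a gene for a subunit of the Sin3 histone deacetylase complex, had 1.49, 1.95 and 1.41 FPKM in shCdGAP libraries, against 1.05, 0.972 and 0.728 FPKM in shCON libraries (0.45, adjusted p 0.0461 by limma). Sap30 averaged 25.5 ± 5.09 FPKM in shCdGAP cells and 16.4 ± 1.03 FPKM in shCON cells (SD, n = 3 each; 0.59, adjusted p 0.0480 by limma). Gm16576, which starts beside Sun2, a gene for an inner nuclear membrane protein, had 0.728, 0.632 and 0.588 FPKM in shCdGAP libraries, against 0.412, 0.283 and 0.380 FPKM in shCON libraries (0.28, adjusted p 0.0346 by limma). With 90, 75 and 79 reads in shCdGAP and 43, 42 and 55 reads in shCON libraries, Gm16576 entered the members through the shCdGAP libraries. Sun2 averaged 19.3 ± 2.57 FPKM in shCdGAP cells and 13.7 ± 0.802 FPKM in shCON cells (SD, n = 3 each; 0.46, adjusted p 0.0469 by limma). For the remaining 2, 2010320M18Rik beside Pik3r2 and Fam120aos beside Fam120a, the coding gene did not pass.

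The start regions of these 2 head-to-head pairs are shown because both genes passed in each without the block and the window holds both starts. They come from RefSeq (GRCm38.p6, plus strand), whose starts can differ from those of GENCODE M21. Capitals mark the bases between the coding gene's start in GENCODE M21 and the lincRNA's start in RefSeq. These are 102 bases for Sap30 and 2500002B13Rik (chr8:57487713-57488012) and 161 bases for Sun2 and Gm16576 (chr15:79742448-79742747). The coding gene is transcribed to the left and the lincRNA to the right.
2500002B13Rik: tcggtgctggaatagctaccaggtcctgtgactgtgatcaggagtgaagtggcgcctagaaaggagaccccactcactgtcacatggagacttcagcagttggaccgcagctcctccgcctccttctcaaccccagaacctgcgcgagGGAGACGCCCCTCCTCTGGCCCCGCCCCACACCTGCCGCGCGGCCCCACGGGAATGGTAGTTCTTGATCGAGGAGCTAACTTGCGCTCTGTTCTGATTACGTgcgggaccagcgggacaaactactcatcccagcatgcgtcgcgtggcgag
Gm16576: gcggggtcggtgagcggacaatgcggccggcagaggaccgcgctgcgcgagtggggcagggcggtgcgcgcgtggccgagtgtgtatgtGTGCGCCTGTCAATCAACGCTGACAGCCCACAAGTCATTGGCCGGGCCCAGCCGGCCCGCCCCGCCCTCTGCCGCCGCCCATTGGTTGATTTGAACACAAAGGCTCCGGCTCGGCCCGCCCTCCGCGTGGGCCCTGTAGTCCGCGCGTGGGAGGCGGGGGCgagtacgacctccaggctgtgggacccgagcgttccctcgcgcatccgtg

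A member and its nearest coding gene shared the sign of their change about as often as coding neighbours did. Of 74 members whose nearest coding gene was tested, 45 (60.8%) had the same sign of log2 fold change as it, against 59.9% of 7678 coding genes and their nearest coding gene. The correlation of the 2 log2 fold changes was 0.32 over the 74 pairs, as a description across genes of the same libraries, and 0.18 over the coding pairs. Within the head-to-head pairs 11 of 22 had the same sign. Where a member overlapped its coding gene on the same strand, 5 of 5 had it, and such pairs may share reads. Both genes passed the threshold in 7 pairs, in 6 of them in the same direction. The like share among coding pairs was not computed, so these counts are a description and no result about the members. Besides the 2 pairs above, the 6 held 2310001H17Rik with Clec2d (a lectin receptor gene, 1.51), Gm19589 with Glrp1 (-1.50), 1810008I18Rik with Pcsk6 (a proprotein convertase gene, -1.23) and Gm38399 with Nav1 (-1.30). Gm38399 had 0.346, 0.526 and 0.563 FPKM in shCdGAP libraries, against 2.30, 2.30 and 2.43 FPKM in shCON libraries (log2 fold change -1.18, adjusted p 0.000652 by limma). With 13, 19 and 23 reads in shCdGAP and 73, 104 and 107 reads in shCON libraries, it entered the members through the shCON libraries. Gm38399 overlaps Nav1 on the same strand, so the 2 may share reads. The exception was Gm26667 with Mrpl39, a mitochondrial ribosomal protein gene 2331 bases away that was lower in shCdGAP cells (16.4 ± 0.916 FPKM, against 28.7 ± 0.670 FPKM in shCON cells, SD, n = 3 each; log2 fold change -0.77, adjusted p 0.00255 by limma). Among the other members of the 8 largest rises and 8 largest falls described with a neighbour, the nearest coding gene was not tested for Xist, AW112010, Gm29562, AI662270 and Gm13387, and did not pass for Gm12514 (Zfp462), Gm12840 (Dmap1), 4930461G14Rik (Insyn1), Gm26944 (Pcf11), 2010320M18Rik (Pik3r2) and Fam120aos (Fam120a). Some members that did not pass themselves lie nearest to a coding gene that did. Examples are 2410004N09Rik with Epb41l4a (0.51, adjusted p 0.0134 by limma), 2810008D09Rik with Sec14l1 (-1.03, 0.00169), 4930556M19Rik with Rai14 (-1.45, 0.00761) and Gm28151 with Slc39a10 (1.02, 0.0197). Gm28151 overlaps Slc39a10 on the same strand, so this pair too may share reads.

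**Figure D4:**
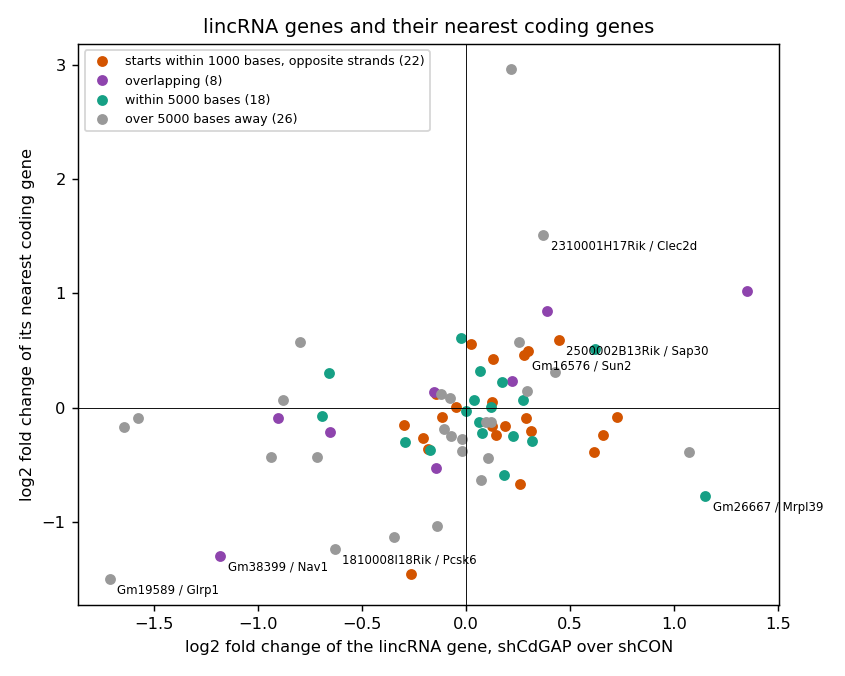
Log2 fold change of shCdGAP over shCON for each lincRNA gene (horizontal) and its nearest tested coding gene (vertical), on the log2(FPKM + 1) scale, for 74 pairs colored by arrangement. The 7 pairs in which both passed the threshold are named, and 6 of them lie in the quadrants of equal sign.

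Library shCdGAP replicate 1 set the value of several members. It was at least 3-fold below both other shCdGAP libraries for 4 members and at least 3-fold above both for 2, against 3.46% and 1.18% of all tested genes over the threshold of 50. 1190002F15Rik (Lockd), which lies 3579 bases from the cell cycle inhibitor gene Cdkn1b and whose locus is known to act on Cdkn1b in mouse erythroid cells, had 0.803, 12.9 and 15.7 FPKM in shCdGAP libraries, against 5.70, 6.98 and 7.23 FPKM in shCON libraries. Replicate 1 was below all shCON libraries and the others above them, and the log2 fold change was -0.03 with it and 1.00 without it (adjusted p 0.00179 by limma). Cdkn1b had 27.2, 20.1 and 15.8 FPKM in shCdGAP libraries, against 14.8, 12.6 and 12.0 FPKM in shCON libraries, with replicate 1 highest in each group (adjusted p 0.0866 by limma). Without shCdGAP replicate 1 Cdkn1b too passed as higher in shCdGAP cells (adjusted p 0.0459 by limma). 5830416P10Rik (Mirt1), a transcript known from mouse heart after infarction, had 1.45, 7.16 and 6.83 FPKM in shCdGAP libraries, against 3.70, 4.32 and 4.12 FPKM in shCON libraries. 2700038G22Rik had 1.60, 8.42 and 9.61 FPKM in shCdGAP libraries, against 3.82, 6.92 and 7.44 FPKM in shCON libraries. Both had replicate 1 under the shCON range and the other shCdGAP libraries over it, and without replicate 1 Mirt1 was higher in shCdGAP cells by 0.66 on the log2 scale (adjusted p 0.00230 by limma). A330074K22Rik had 7.85, 1.76 and 2.12 FPKM in shCdGAP libraries, against 1.12, 0.862 and 0.841 FPKM in shCON libraries. Its groups did not overlap, and it passed without replicate 1 (0.60, adjusted p 0.00660 by limma) and not with it. BC051077 had 0.474, 2.49 and 2.37 FPKM in shCdGAP libraries, against 3.40, 2.67 and 3.55 FPKM in shCON libraries, and 4930556M19Rik had 0.933, 0.158 and 0.130 FPKM in shCdGAP libraries, against 0.989, 0.478 and 0.492 FPKM in shCON libraries. In shCON, replicate 1 was at least 3-fold below both others for AW112010 and Gm28151, 2 of the 100 members. Of all tested genes over the threshold of 50, 11 of 11303 (0.0973%) were so. Apart from those in the fixed lists and at the threshold, the genes of this paragraph were chosen after their values were seen.

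**Figure D5:**
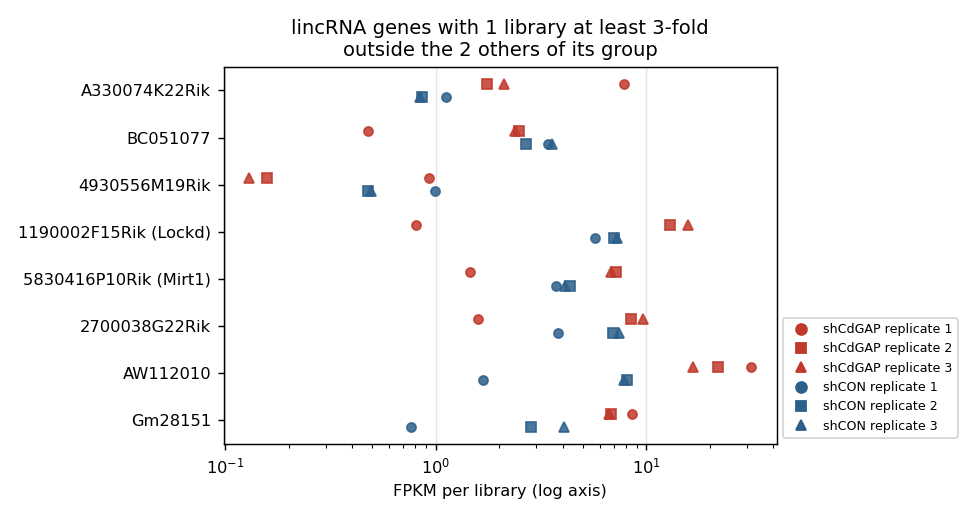
FPKM per library (log axis) of the 8 lincRNA genes with a library at least 3-fold outside both others of its group, after adding 0.1 FPKM. Each symbol is a library, shCdGAP in red above shCON in blue, and circles are the libraries numbered 1, which are the ones apart in all 8 genes.

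Further members in the lists or at the threshold follow. 1700020I14Rik had 17.3, 12.8 and 10.1 FPKM in shCdGAP libraries, against 11.3, 11.9 and 11.0 FPKM in shCON libraries, and its groups overlapped. Gm12603 (Wincr1), known as a Wnt-induced transcript in mouse skin, had 39.7, 39.3 and 42.0 FPKM in shCdGAP libraries, against 62.5, 47.3 and 46.1 FPKM in shCON libraries, an example chosen after its values were seen. Its groups did not overlap, and its adjusted p by limma was 0.139. At the threshold of 50, Cep83os had 1.5, 0.573 and 0.535 FPKM in shCdGAP libraries, against 0.113, 0.220 and 0.235 FPKM in shCON libraries, apart in every library but with an adjusted p of 0.0752 by limma. 2310001H17Rik, which rose, had 0.653, 0.624 and 0.481 FPKM in shCdGAP libraries, against 0.273, 0.204 and 0.197 FPKM in shCON libraries. These values stand for 85, 78 and 68 reads in shCdGAP libraries, against 30, 32 and 30 reads in shCON libraries. Like Cep83os, with 9, 25 and 26 reads in shCON libraries, 2310001H17Rik entered the members through the shCdGAP libraries. Of the 100 members 16 averaged under 1 FPKM, where the log2(FPKM + 1) scale understates change, and 19 averaged over 10 FPKM.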

How the data were processed

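The labels gave each sample's group and replicate number. Trimmomatic, TopHat2 2.0.13, featureCounts, DESeq2 and the build mm10 are named, without roles, per the submitters' processing notes. Neither annotation release nor strand handling is stated there, so antisense or overlapping genes may share reads that cannot be told apart. The authors deposited FPKM per library, already divided by size factors, and per the file headers a mean signal per gene, log2 fold changes and standard errors, a score, and raw and adjusted p-values, for shCdGAP over control. Multiplying FPKM by the mean signal over the mean FPKM, and by a size factor fitted per library, gave whole reads for 100% of values (tolerance 1e-06), which served for depth, filters and limma-voom. Limma-voom on these reads called 24 members and 22.2% of all tested genes.

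Genes were tested that had, after scaling to the median depth, 10 or more reads in 3 or more libraries and 15 or more in sum, by limma 3.58.1 (R 4.3.3) on log2(FPKM + 1), with empirical Bayes moderation (trend, robust), 2-sided, group as the single term. The +1 understates changes of low genes. Neighbours and positions came from GENCODE M21 (GRCm38), promoters and microRNAs from RefSeq GRCm38.p6. A single pair of neighbours was left out and is not reported here. A library was called apart at 3-fold beyond both others of its group after adding 0.1 FPKM. Steps were tested on simulated data. Python 3.11.15, pandas 2.3.3, numpy 2.4.6 and matplotlib 3.10.9 were used.

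The named genes are members in the fixed lists, the 8 largest rises and 8 largest falls past the threshold, the 5 most abundant members, the 3 members just inside and 3 genes just outside the threshold, and the nearest coding genes of the changed ones. The members and lists were chosen with earlier results of these data known. Across genes, libraries with the same number deviated together from their groups (correlations of 0.43, 0.39 and 0.34), which meets the criterion for pairing, on the data alone, since no label says so. The printed tests are unpaired, with the replicate number entered as a block as an alternative.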

Additional observations from a re-analysis of the deposited data

How the results depend on the processing

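Of 24 members past the threshold (13 higher, 11 lower), the number stayed within 1.5 times under a pseudocount of 0.1 FPKM, a filter of a mean of 1 CPM, other scalings, limma-voom and the authors' deposited comparison. Without a filter 8 were higher (all tested genes, either direction: 11.2%, against 21.0% in the printed test). With the replicate block 7 were higher (18.2%), and the block moved no other count by over 1.5 times. Without both libraries numbered 1 there were 55, 36 higher and 19 lower (48.3%). Leaving out 1 library gave 9 to 43 in all (9.17% to 39.9% of all tested genes), 3 to 25 higher and 6 to 18 lower, the highest without shCdGAP replicate 1. The lowest, 9, came without shCON replicate 2 and again without shCON replicate 3, with 11 without shCdGAP replicate 2. Higher members numbered 8 without shCdGAP replicate 3 and 7 without shCON replicate 1. A minimum mean of 20 gave 38 of 176, 21 of them lower, and a minimum of 200 gave 9 of 36, 4 higher and 5 lower, both against 21.0%; these change which genes are members. Of 675 comparisons of 45 named genes with an alternative, 565 stayed on their side of the threshold, 85 lost it, 22 gained it and 3 passed it with the opposite sign. Those 3 were 1190002F15Rik, at -0.61 to 1.00 over the fits that leave out 1 library (highest without shCdGAP replicate 1) and at 0.91 when the numbers 1 of both groups were left out, and 2700038G22Rik, at 0.29 in that last fit. The cause was not tested.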
